A study of Mus musculus with 8 samples.

Results

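The liver response of the endoplasmic reticulum (ER) to unfolded protein was followed through 10 genes. They were chosen by name, with earlier results of these data known. They were Atf4, Xbp1 and Ddit3 (transcription factors), Hspa5, Dnajb9, Sdf2l1 and Pdia4 (folding in the ER), Herpud1 (degradation of ER proteins), and Ppp1r15a and Trib3 (feedback on the response). On the array 9 of the genes carried these names on 12 probes. The remaining gene, Ppp1r15a, was found through the RefSeq entry of a probe that the array design lists under the older name Myd116. These 13 probes of 10 genes were part of 41174 non-control probes. All 13 were detected on each of the 8 arrays, among 31056 detected probes of 21133 genes in all.

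RNA came from whole liver of male wild-type C57BL/6 mice (C57BL/6J in the study's methods) that were 14 to 17 weeks old at the start. For 4 weeks, 4 mice ate standard chow (STD) and 4 ate the atherogenic diet (ATH), a high-fat and high-cholesterol diet with added cholic acid. Each mouse had its own 1-color array. Both diets share the strain, the sex and the tissue, and the diet is the intended difference. All 4 STD arrays were on 1 slide and all 4 ATH arrays on another, and therefore the slide and the diet cannot be told apart.

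Secreted and membrane proteins fold in the ER, and hepatocytes, which make most plasma proteins, carry a heavy load of them. When unfolded protein accumulates, 3 sensors in the ER membrane start the unfolded protein response. IRE1 (Ern1) splices the Xbp1 mRNA, PERK (Eif2ak3) slows translation while favoring that of Atf4, and ATF6 is cut to release a transcription factor. Chaperone and degradation genes are known targets of XBP1 and ATF6. The PERK arm acts through ATF4 and CHOP, the product of Ddit3, on genes of amino acid metabolism and cell death. An array probe of this kind reports the amount of mRNA and shows neither Xbp1 splicing nor translation of Atf4.

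The classical targets can be recognized in part from promoter letters. RefSeq promoter windows of 300 bases (250 before the start and 50 after it, GRCm38.p6) were searched for the ER stress element, CCAAT followed after 9 bases by CCACG, on either strand. It was in 39 of 32851 windows (0.119%). Of the 10 genes only Hspa5 held it, and 7 of the 17 ER chaperone genes with a window did so (Hsp90b1, Calr, Canx, Pdia6, Dnajc3, Creld2 and Ero1b). The degradation genes Derl3 and Syvn1 held it too. Herpud1 held a second form, ATTGG followed after 1 base by CCACG, which was in 12 windows (0.0365%) and was added to the search after its promoter had been read. The stretches around these elements are shown for Hspa5 and Herpud1, for 3 chaperones, and for Syvn1, whose liver-to-liver pattern was among those closest to Hspa5. Each is given 5′ to 3′ on the strand of its gene, and capitals mark the element from its first to its last base.
Hspa5, chr2:34772015-34772053, + strand: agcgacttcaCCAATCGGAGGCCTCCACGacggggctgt
Herpud1, chr8:94386367-94386397, + strand: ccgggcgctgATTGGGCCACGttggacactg
Canx, chr11:50325790-50325828, - strand: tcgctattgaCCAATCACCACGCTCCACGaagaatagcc
Calr, chr8:84847065-84847103, - strand: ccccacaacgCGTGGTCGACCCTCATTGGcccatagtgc
Creld2, chr15:88819510-88819548, + strand: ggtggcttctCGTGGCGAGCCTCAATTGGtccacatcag
Syvn1, chr19:6046522-6046560, + strand: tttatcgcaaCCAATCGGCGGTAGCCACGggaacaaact
In Hspa5, Herpud1, Canx and Syvn1 the element reads forward along the gene. In Calr and Creld2 the reverse complement is seen, so that CGTGG stands before ATTGG.

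A second set of letters, TGATGNAAN on either strand, is that of the composite element bound by ATF4 with C/EBP factors. It is short and was in 1299 windows (3.95%). Of the 10 genes, Herpud1 held it before the start and Trib3 after the start. Of the 26 ATF4 and CHOP target genes with a window 9 held it, among them the 3 shown here because their signals differed between the diets. Capitals again mark the element.
Asns, chr6:7693214-7693242, - strand: cccagccacaTGATGAAACttcccgcacg
Atf3, chr1:191183426-191183454, - strand: ccttctcgcaCTTGCATCAccaagtccgc
Nupr1, chr7:126625563-126625591, - strand: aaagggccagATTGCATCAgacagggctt
In Asns the letters read forward along the gene, whereas Atf3 and Nupr1 hold the reverse complement. A match says only that these letters are in the window.

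At none of the 10 genes did the difference between the diets pass the test against the spread of the livers. By limma, with the Benjamini-Hochberg adjustment over all detected probes, 0 of 10 were called at a false discovery rate of 5%, against 7.99% of all detected probes (3.06% higher in ATH and 4.94% lower). At 1% the count was also 0, and 0 of the 10 had an unadjusted p under 0.05 by limma or by the methods' test with unequal variances. Values here are log2 processed signals minus the 75th percentile of the array, and a fold change is the ATH mean minus the STD mean on this scale. The fold changes ran from -0.51 (Hspa5) to 0.29 (Ddit3), with standard errors of 0.16 to 0.41 and adjusted p from 0.200 to 0.864. The diets overlapped at all 13 probes, whereas they did not overlap at 19.9% of all detected probes. In these bulk samples, fewer cells of a type and less RNA per cell cannot be told apart.

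The sign of these small differences depended on the scaling. With the 75th percentile 9 of the 10 fold changes were negative, with a median of -0.24 beside -0.15 over all detected probes. Unscaled signals were brighter in ATH, by 0.45 at the 75th percentile and by 0.14 at the median of the 10 spike-in probes. Without scaling 9 of the 10 were positive, all but Hspa5, and with spike-in scaling 7 were. In the unscaled values 1 of the 10 was called, Ddit3 with a log2 fold change of 0.74 (limma adjusted p = 0.0328), where 23.7% of all detected probes were called.

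**Figure D1:**
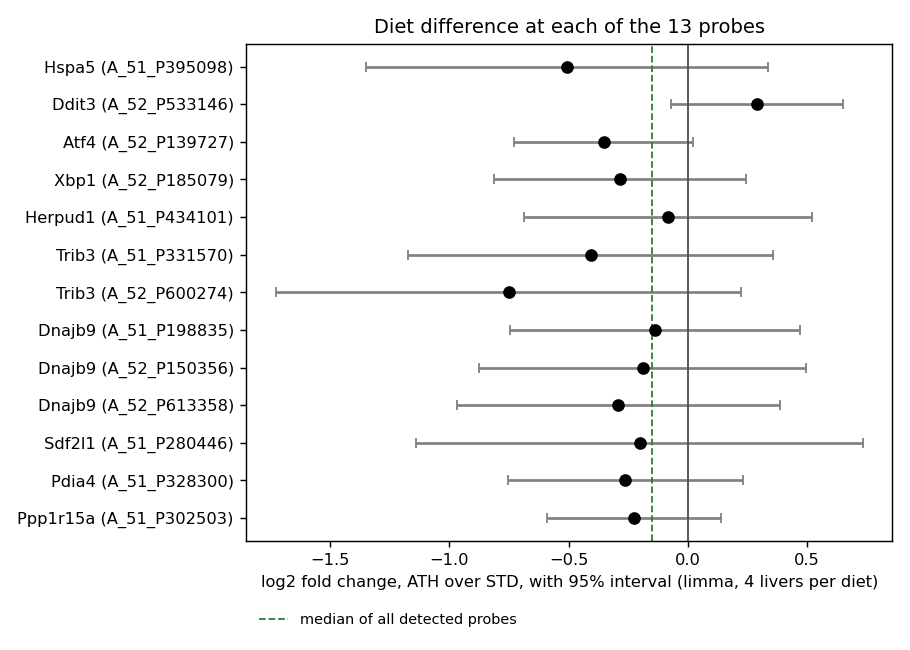
Points give the log2 fold change of ATH over STD at each of the 13 probes after 75th percentile scaling, bars the 95% interval of limma (4 livers per diet), and the dashed line the median of all detected probes, -0.15. All 13 intervals include 0, and the points lie between -0.75 and 0.29. Without scaling all points would lie higher by about 0.45, which turns the sign at the brightest probe of all genes but Hspa5 and Ddit3.

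Atf4 encodes the transcription factor of the PERK arm, which is largely controlled through translation. Its scaled log2 signals were 2.08, 1.88, 1.60 and 2.12 in STD livers 1 to 4 and 1.50, 1.85, 1.59 and 1.33 in ATH livers 1 to 4. ATH liver 4 was the lowest, and STD liver 3 lay among the ATH values. The log2 fold change of -0.35 (SE 0.17, limma adjusted p = 0.200) came with the smallest adjusted p of the 10 genes. Without scaling it was 0.09.

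Ddit3 encodes CHOP, a factor linked to cell death in lasting ER stress. Scaled log2 signals were -0.52, -0.27, -0.57 and -0.67 in the STD livers and -0.24, -0.45, 0.13 and -0.32 in the ATH livers. ATH liver 3 was the highest of the 8, and ATH livers 2 and 4 lay below STD liver 2. Ddit3 was the single gene of the 10 with a positive fold change, 0.29 (SE 0.16, limma adjusted p = 0.262), and its 95% interval reached from 0.952-fold to 1.57-fold.

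Xbp1 encodes the factor whose mRNA is spliced by IRE1. The STD livers lay close together, at 3.32, 3.42, 3.49 and 3.43, with an SD of 0.072 that was larger than that of only 6.17% of detected probes. The ATH livers were spread over 2.58, 3.31, 3.74 and 2.88, with an SD of 0.51 that exceeded that of 82.2% of probes. ATH livers 1 and 4 were below and ATH liver 3 above all STD livers. The log2 fold change was -0.29 (SE 0.23, limma adjusted p = 0.444). The difference in spread was not tested.

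**Figure D2:**
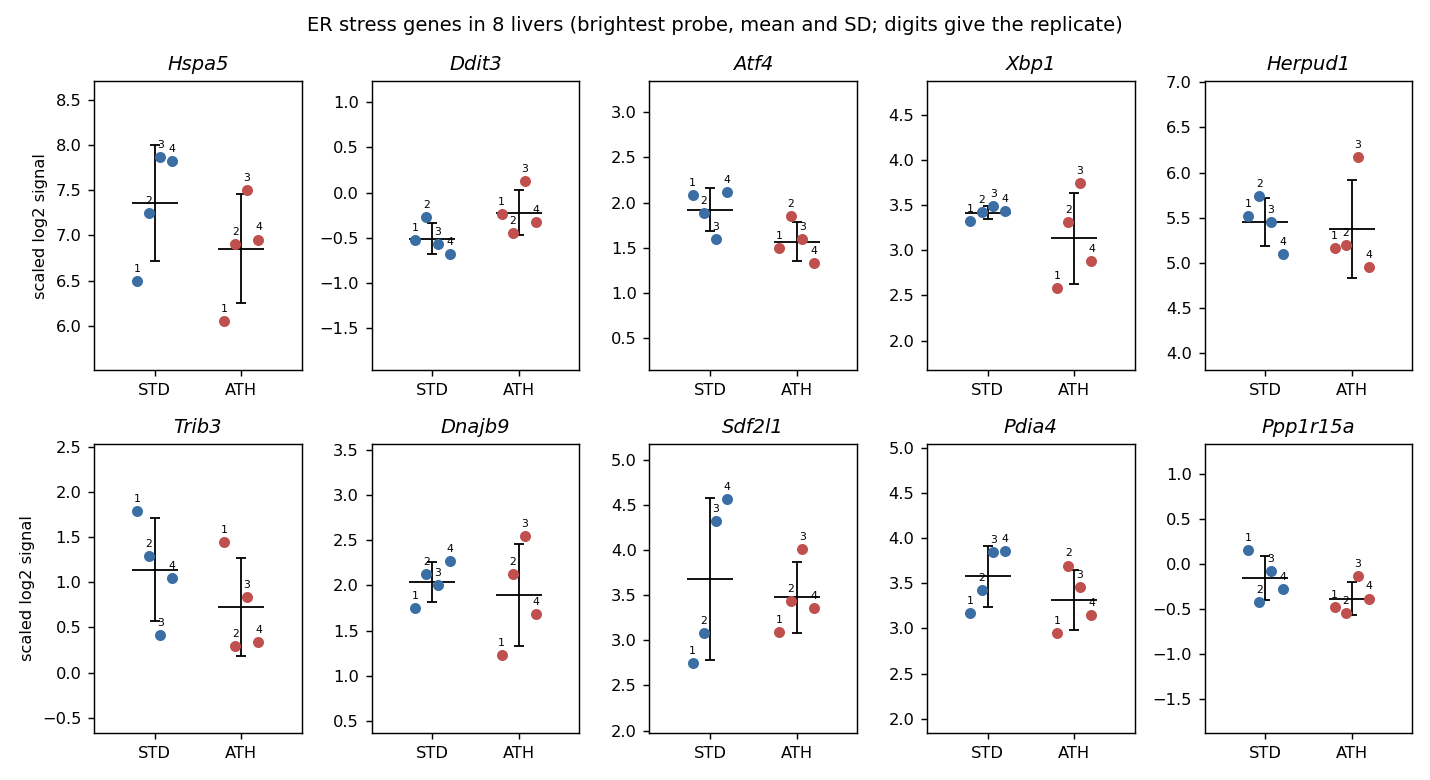
Scaled log2 signal (vertical axis) of the brightest probe of each of the 10 genes in the 4 STD and 4 ATH livers; points are livers with their replicate numbers, and lines give the mean and SD. Each panel spans the same log2 range around its own center, and the diets overlap in every panel.

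Hspa5 encodes BiP, the main ER chaperone of the Hsp70 family and the usual marker of the response. Scaled log2 signals were 6.50, 7.25, 7.87 and 7.83 in the STD livers and 6.06, 6.90, 7.51 and 6.96 in the ATH livers. The lowest liver of each diet was number 1 and the highest was number 3. The livers of a single diet differed by up to 1.37 (STD) and 1.45 (ATH). Within same-numbered pairs of livers the ATH value was lower by 0.44, 0.35, 0.36 and 0.87, that is in 4 of 4 pairs. Such pairs share a slide position, and the labels do not pair the mice. The log2 fold change was -0.51 (SE 0.37, limma adjusted p = 0.396), with a 95% interval from 0.392-fold to 1.26-fold. It was -0.24 without ATH liver 1, -0.79 without STD liver 1 and -0.06 without scaling. With the block for replicate number its SE was 0.14 and it was not called (limma adjusted p = 0.079). Atf4 and Ppp1r15a also had lower ATH values in 4 of 4 pairs, with differences of -0.79 to -0.0066 and of -0.63 to -0.05. After this scaling 67.1% of all detected probes had a negative fold change. The share of them lower in 4 of 4 pairs was not counted. Without scaling the fold changes of Atf4 (0.09) and Ppp1r15a (0.22) were positive.

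Sdf2l1 encodes a small partner of BiP in the ER lumen. Its signals were 2.74, 3.08, 4.32 and 4.57 in the STD livers, an SD of 0.90 that exceeded that of 98.1% of detected probes. They were 3.09, 3.43, 4.02 and 3.36 in the ATH livers, all within the STD range. With a log2 fold change of -0.20 (SE 0.41, limma adjusted p = 0.776) it had the widest interval of the 10 brightest probes, from 0.454-fold to 1.66-fold. The sign turned without STD liver 3 (0.01) and without STD liver 4 (0.09).

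Pdia4 encodes a protein disulfide isomerase of the ER. Signals were 3.16, 3.43, 3.85 and 3.86 in the STD livers and 2.95, 3.70, 3.45 and 3.15 in the ATH livers. Number 1 was again the lowest in each diet, and the log2 fold change was -0.26 (SE 0.22, limma adjusted p = 0.453). Dnajb9 encodes ERdj4, a co-chaperone of BiP that binds IRE1, and was measured by 3 probes. At the brightest, STD livers gave 1.75, 2.12, 2.003 and 2.27 and ATH livers 1.24, 2.13, 2.55 and 1.69. ATH liver 1 was the lowest and ATH liver 3 the highest at each of its 3 probes, whose log2 fold changes were -0.14, -0.19 and -0.29 (limma adjusted p = 0.764, 0.712 and 0.548). Without ATH liver 1 the value at the brightest probe turned to 0.08.

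Herpud1 encodes a membrane protein of ER-associated degradation. Signals were 5.52, 5.74, 5.45 and 5.10 in the STD livers and 5.17, 5.20, 6.17 and 4.95 in the ATH livers. ATH liver 3 was the highest of the 8 and ATH liver 4 the lowest. The log2 fold change was the smallest of the 10 genes, -0.08 (SE 0.27, limma adjusted p = 0.864), and was 0.01 without STD liver 2, 0.06 without ATH liver 4 and -0.35 without ATH liver 3.

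Ppp1r15a encodes GADD34, which directs a phosphatase to eIF2α and so ends the translational arm. Its signals were 0.15, -0.42, -0.08 and -0.27 in the STD livers and -0.48, -0.54, -0.13 and -0.38 in the ATH livers. The log2 fold change was -0.23 (SE 0.16, limma adjusted p = 0.378), and ATH livers 3 and 4 lay within the STD range. Trib3 encodes a pseudokinase induced by ATF4 and CHOP and was measured by 2 probes. The brighter gave 1.79, 1.29, 0.42 and 1.05 in the STD livers and 1.45, 0.29, 0.84 and 0.34 in the ATH livers. The dimmer gave 0.09, -1.49, -1.26 and -0.58 in the STD livers and -1.34, -2.57, -0.82 and -1.51 in the ATH livers. Log2 fold changes were -0.41 (SE 0.34, limma adjusted p = 0.450) and -0.75 (SE 0.43, limma adjusted p = 0.280). STD liver 1 was the highest of the 8 at both Trib3 probes, and the lowest ATH value was that of liver 2 at both.

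The upper 95% limits of the 10 genes, at the brightest probes and after scaling, ran from 1.02-fold (Atf4) to 1.66-fold (Sdf2l1) of the STD level. The lower limits ran from 0.392-fold (Hspa5) to 0.952-fold (Ddit3). These limits do not include the choice of scaling. Without scaling the log2 fold change of Ddit3 was 0.74, above the upper limit of 0.65 (log2) of its scaled interval.

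The rest of the pathway was described from lists of 101 other genes, arranged by role, all with a detected probe. Of these, 10 (9.90%) were called at 5% by limma, against 7.99% of all detected probes. They were 8 of 30 ATF4 and CHOP targets (26.7%) and 2 of the 71 genes of the other 4 lists (2.82%; 15 sensor and signalling genes, 20 ER chaperones and folding enzymes, 18 degradation genes and 18 genes of translocation and ER export). Of the chaperones and of the translocation and export genes, 0 were called. When replicate number entered as a block, the count was 6, where 4.45% of all detected probes were called. The share of all probes in the fits without 1 array is not given. In those fits the count was 2 without STD liver 1, 2 without STD liver 4 and 3 without ATH liver 3. It was 4 without STD liver 3, 4 without ATH liver 4 and 5 without STD liver 2. It was 8 and 14 without ATH livers 1 and 2.

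Among the sensors, Ern1 (0.07, adjusted p = 0.861), Eif2ak3 (0.28, adjusted p = 0.304) and Atf6 (-0.08, adjusted p = 0.725) were not called by limma. Creb3l3, which encodes the hepatocyte ER-bound factor CREBH, was called lower with a log2 fold change of -0.51 (SE 0.13, limma adjusted p = 0.0476). The STD livers gave 6.28, 6.19, 6.21 and 6.09 and the ATH livers 5.89, 5.77, 5.53 and 5.51, without overlap. It was not called with the block (adjusted p = 0.0597) or without scaling (adjusted p = 0.703), nor with median, quantile or spike-in scaling. It was also not called without the detection filter or by the methods' test. With 1 array left out in turn it was called in only 2 of 8 fits (highest limma adjusted p = 0.122). The other eIF2α kinases with the smallest p were Eif2ak1 (HRI, -0.38, limma adjusted p = 0.0609) and Eif2ak2 (PKR, 0.54, limma adjusted p = 0.0801). Traf2, an adaptor of IRE1, followed at 0.29 (limma adjusted p = 0.106). Its STD values of 1.80, 1.84, 1.76 and 1.77 lay below the ATH values of 2.08, 2.10, 2.04 and 2.12, and it was the single gene of the 101 called by the methods' test (adjusted p = 0.0456). It was also called by limma without scaling, with spike-ins and with normexp.

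Of the 20 ER chaperones and folding enzymes, 4 had an unadjusted p under 0.05 and none was called by limma. Their median log2 fold change was -0.25 after scaling, 0.20 without scaling and 0.06 with that by spike-ins. The smallest p were those of the oxidase gene Ero1a (0.43, adjusted p = 0.0540, while the other detected probe gave -0.18), the BiP exchange factor Sil1 (-0.46, adjusted p = 0.0630), the reductase Dnajc10 (0.36, adjusted p = 0.108) and the lectin chaperone Canx (-0.30, adjusted p = 0.165). In the degradation list, Os9 (-0.42, adjusted p = 0.0895), Nploc4 (-0.25, adjusted p = 0.196) and Sel1l (-0.43, adjusted p = 0.235) were not called.

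Translocation and export genes gave a median of -0.15 after scaling and 0.29 without, and the smallest p were those of Sec16b (-0.43, limma adjusted p = 0.0616) and Sar1b (-0.61, limma adjusted p = 0.0636). Ssr2 (-0.33, adjusted p = 0.115) and Srpr (-0.29, adjusted p = 0.182) came next. Over the 4 lists without the ATF4 and CHOP targets, 57 of 71 genes (80.3%) were lower after scaling, as were 67.1% of all detected probes, and 2 were called. All 4 list medians turned positive under spike-in scaling or none, as did the median of all detected probes (-0.15 after scaling, 0.16 with spike-ins and 0.30 without scaling). For comparison, 0 of 12 detected cytosolic heat shock genes and 1 of 11 mitochondrial chaperone and protease genes, Hspd1, were called. The latter share, 9.09%, was near the 7.99% of all detected probes. Hspd1, the mitochondrial chaperonin, was lower at -0.56 (limma adjusted p = 0.0473) and lost its call with the block (adjusted p = 0.0692), without scaling (adjusted p = 0.583) and by the methods' test (adjusted p = 0.107). The medians of these lists were -0.19 and -0.43 after scaling, and 0.25 and 0.02 without it.

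**Figure D3:**
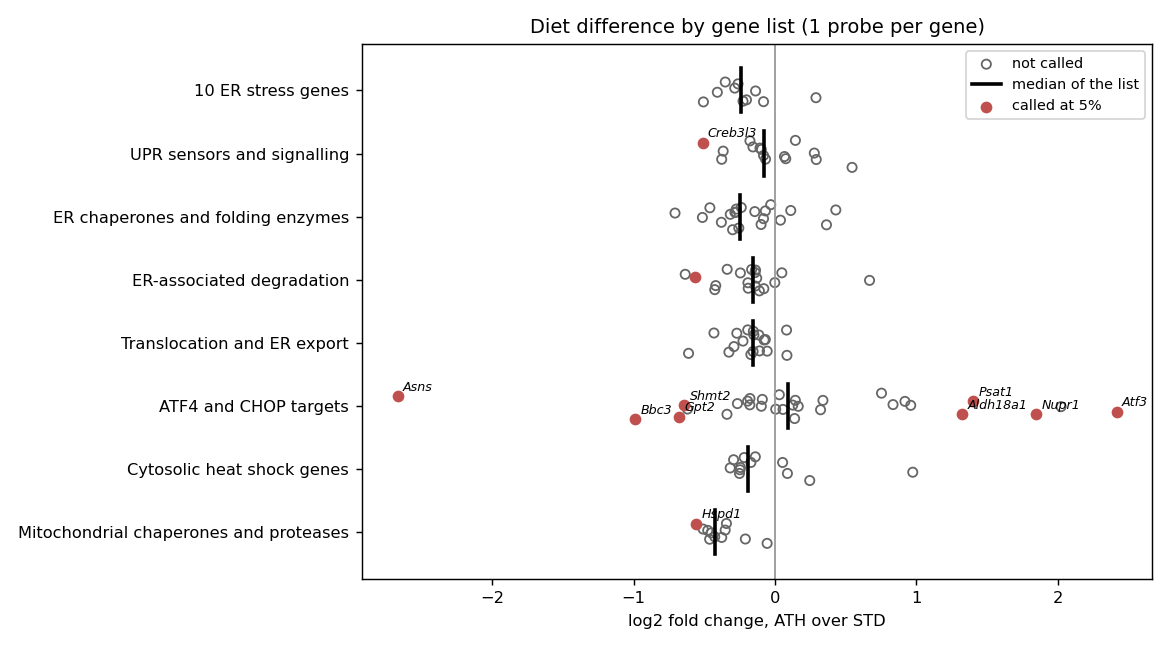
Each circle is a gene, placed by its log2 fold change of ATH over STD (horizontal axis, brightest probe, 75th percentile scaling), in rows by list. Filled circles were called at 5% by limma, with names for those described in the text, and bars are list medians. The 10 ER stress genes hold no filled circle and have a median of -0.24 (0.20 without scaling); the ATF4 and CHOP targets extend from -2.67 to 2.42.

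Of the 30 ATF4 and CHOP targets, 4 were called higher and 4 lower, beside 3.06% and 4.94% of all detected probes, and 22 were not called. The split depended on the scaling. Without scaling 12 were called higher and 1 lower, where 22.5% and 1.2% of all detected probes were. With spike-in scaling 7 were called higher and 1 lower, where 2463 and 397 of 31056 detected probes were. The list median was 0.09 after scaling, 0.54 without it and 0.40 with spike-ins. These counts use the brightest probe, and other detected probes of some uncalled genes differed. For example, Slc7a11 gave 0.14 at its brightest probe and 2.67 at the other. Bcl2l11 ran from -1.02 to 0.96 over 3 probes. Asns, asparagine synthetase, had STD values of 2.30, 3.15, 2.56 and 3.18 and ATH values of 0.82, 0.73, -1.003 and -0.03. Every ATH liver was below every STD liver, at a log2 fold change of -2.67 (6.36-fold lower, SE 0.40, limma adjusted p = 0.0131). Nupr1, a small stress-induced chromatin protein, had STD values of -1.36, -1.06, -0.995 and -0.96 and ATH values of 0.28, 0.20, 1.23 and 1.31. Every ATH liver was above every STD liver, at 1.85 (3.60-fold, SE 0.27, limma adjusted p = 0.0123). Both Asns and Nupr1 were called whichever of the 8 arrays was left out, with the block and without scaling. By the methods' test with unequal variances neither was (adjusted p = 0.104 and 0.121), and at 1% by limma neither was. The methods' test called only 0.0708% of all detected probes.

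Bbc3, which encodes the cell death protein PUMA, had STD values of 3.24, 3.54, 3.15 and 3.61 and ATH values of 2.44, 2.37, 2.08 and 2.71. It was called lower at -0.99 (1.98-fold, SE 0.17, limma adjusted p = 0.0190), though not without scaling (adjusted p = 0.0639), with spike-in scaling (adjusted p = 0.0571), without STD liver 1 or without STD liver 4 (highest adjusted p = 0.0551). Aldh18a1, an enzyme of proline synthesis, was called higher at 1.32 (SE 0.24, limma adjusted p = 0.0216), from a dim probe detected in 2 of 4 STD livers and in 4 of 4 ATH livers, so that it entered the test through the ATH livers alone. With normexp background correction the value was 0.12 and was not called (limma adjusted p = 0.360). With 1 array left out it was called in 3 of 8 fits, losing the call without any 1 of the STD livers or without ATH liver 3 (highest adjusted p = 0.0667).

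The remaining 4 called targets are named after their values were seen. Atf3, a stress-induced factor, was higher by 2.42 (SE 0.51, limma adjusted p = 0.0304), with STD values of -1.81, -2.59, -2.57 and -3.32 and ATH values of -0.64, -1.38, 0.86 and 0.54. Psat1, of serine synthesis, was higher by 1.40 (limma adjusted p = 0.0379) and was detected in 3 of 4 STD livers. Shmt2 (mitochondrial serine hydroxymethyltransferase) fell by 0.64 and Gpt2 (mitochondrial alanine aminotransferase) fell by 0.68 (limma adjusted p = 0.0266 and 0.0417). With 1 array left out in turn, Atf3 was called in 2 of 8 fits, Psat1 in 3, Shmt2 in 3 and Gpt2 in 1, with highest adjusted p of 0.0786, 0.0956, 0.0805 and 0.107. Without scaling Shmt2 and Gpt2 were not called (adjusted p = 0.253 and 0.244), nor with quantile or spike-in scaling, and with the block Atf3, Psat1 and Gpt2 were not (adjusted p = 0.0600, 0.0600 and 0.0502).

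**Figure D4:**
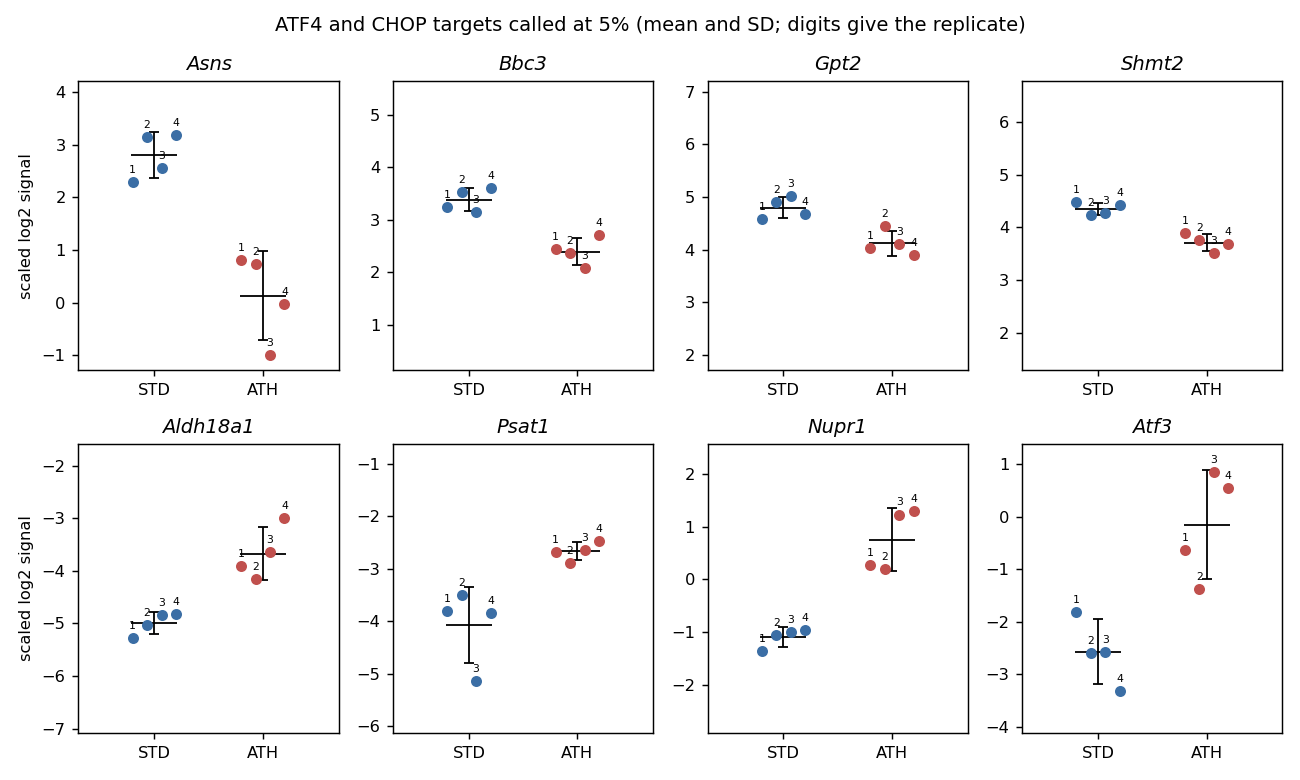
Scaled log2 signal (vertical axis) of the 8 ATF4 and CHOP targets called at 5%, by liver, with replicate numbers, mean and SD; each panel spans the same log2 range. The diets do not overlap in any of the 8 panels, which were chosen because the genes were called.

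Several markers of other cell types were called between the diets in the same livers. Of 17 macrophage and Kupffer cell markers, all with a detected probe, 17 were higher in ATH. Of these, 10 were called (58.8%, against 7.99% of all detected probes). The median log2 fold change of the 17 was 1.92. Among those called, Gpnmb was detected in 0 of 4 STD livers and 4 of 4 ATH livers. It entered the test through the ATH livers alone. The list median ran from 0.83 to 1.33 in STD livers and from 1.56 to 3.42 in ATH livers. Centered on the 8 livers, it was 1.78 and 1.92 in ATH livers 3 and 4, and 0.48 and -0.27 in ATH livers 1 and 2. Of the called ATF4 and CHOP targets, Atf3, Nupr1, Psat1 and Aldh18a1 had their highest values in ATH livers 3 and 4. Asns and Shmt2 had their lowest values there, and Bbc3 and Gpt2 followed neither order. For Psat1 the order was close, at -2.64 in ATH liver 3 and -2.68 in ATH liver 1. These orders were read after the values had been seen, and their share over all detected probes was not counted. Of 15 detected hepatocyte markers, among them Alb, 4 (26.7%) were called lower, beside 4.94% of all detected probes. The hepatocyte median was -0.40 after scaling and 0.05 without. With the replicate block 6 macrophage and 1 hepatocyte markers were called (35.3% and 6.67%), beside 4.45% of all detected probes. Of the other lists, 1 of 12 stellate cell, 2 of 10 endothelial and 1 of 7 cholangiocyte markers were called by limma, each higher in ATH. The stellate share, 8.33%, was near the 7.99% of all detected probes. Of the neutrophil and the T and B cell markers, 0 of 8 and 0 of 11 were called. The list medians were 0.37, 0.24, 0.16, 0.55 and 0.54 in that order. The markers' part in the results on ATF4 and CHOP targets was not tested.

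The 21 genes with the ER stress element and a detected probe included 10 that were among the 10 ER stress genes or on the lists. Their median log2 fold change was -0.27 (0.17 without scaling), beside -0.15 (0.30 without scaling) over all detected probes. After scaling 14 (66.7%) were lower, as were 67.1% of all detected probes, and 2 (9.52%) were called by limma, against 7.99%. The 2 were Acacb, acetyl-CoA carboxylase beta (-1.80, adjusted p = 0.00585), and Olfr59, an odorant receptor gene (-1.28, adjusted p = 0.00801), neither of them on a list. They are named after their values were seen.

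STD liver 1 was low across genes of ER folding and translocation, and across cytosolic heat shock genes as well. This order was examined after the values had been seen and has no test. It was the lowest STD liver at 19 of 20 ER chaperones and folding enzymes (95%) and at 17 of 18 genes of translocation and export (94.4%). It was also the lowest at 9 of 12 detected cytosolic heat shock genes (75%). It was the lowest at 9 of 18 degradation genes (50%), at 3 of 15 sensor and signalling genes (20%) and at 21.9% of all detected probes. Of the 10 ER stress genes it was the lowest for 5, namely Hspa5, Xbp1, Dnajb9, Sdf2l1 and Pdia4. Centered on the 8 livers, the chaperone list had a median of -0.28 in STD liver 1 and of 0.27 in STD liver 4, while its median difference between the diets was -0.25. In the ATH livers 1 to 4 it was -0.17, 0.11, -0.03 and -0.25. ATH liver 1 was the lowest ATH liver for 5 of the 10 genes and for 9 of 20 chaperones (45%), but for 3 of 18 genes of translocation and export (16.7%), against 17.1% of all probes. ATH liver 3 was the highest for 7 of the 10 genes, for 5 of 20 chaperones (25%) and for 1 of 18 translocation and export genes (5.56%), against 18.7%.

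**Figure D5:**
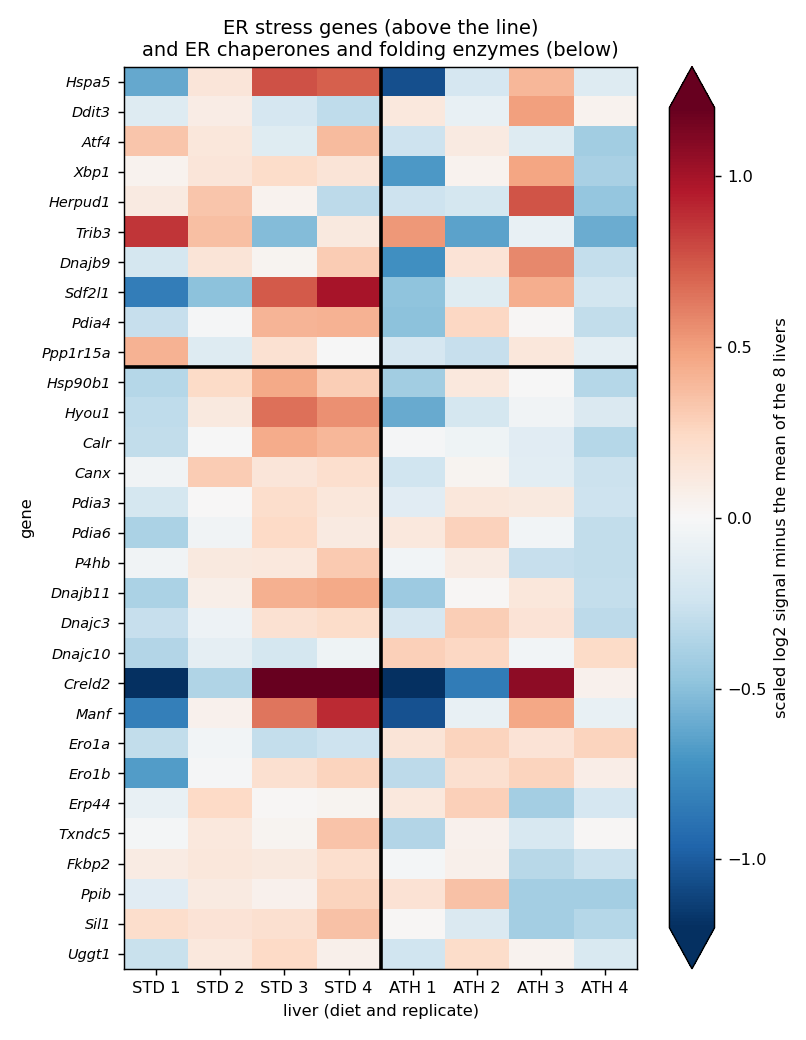
Scaled log2 signal of each gene minus its mean over the 8 livers, in color, for the 10 ER stress genes (above the line) and 20 ER chaperones and folding enzymes (below it); columns are livers and colors saturate beyond the ends of the scale. STD 1 is the lowest STD column for 19 of the 20 lower rows, and ATH 3 is the highest ATH column for 7 of the 10 upper rows.

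The genes most like Hspa5 were ranked by the mean absolute difference of their centered profiles over the 8 livers, among 16552 genes, each taken at its detected probe closest to Hspa5. The nearest was Manf, an ER-resident secreted factor, at 0.107, followed by the ubiquitin ligase gene Syvn1 (0.159), Etfbkmt (0.163), the cytosolic chaperone gene Hspa8 (0.166) and Stbd1 (0.168). The median over all genes was 0.534. Of the 10 ER stress genes, Dnajb9 came at rank 25 (0.231) and Sdf2l1 at rank 33 (0.237), while Trib3 lay at 0.696, beyond the median. For Dnajb9 and Trib3 the closest probe was not the brightest, which gave 0.318 and 0.812. The 8 livers share the diet and slide difference, so the ranking is a description.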

How the data were processed

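Liver RNA from 4 STD and 4 ATH mice was hybridized by the authors to Agilent whole mouse genome arrays, and the deposited intensity values are processed signals of Agilent Feature Extraction 9.5 with 1-color defaults, background-subtracted. The authors also deposited log2 values made in GeneSpring, which equaled the log2 processed signal plus constants per array and probe for 99.57% of probes within 0.001 and were used as an alternative. Spots with an outlier mark were left out and spots of a probe averaged. Detected means well above background, positive and without outlier mark on at least 3 arrays of either diet. Spots well above background made up 72.35% to 77.76% of an array, and the number of arrays limits the precision.

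Diets, taken from the labels, were compared with limma 3.58.1 in R 4.3.3 (lmFit, eBayes, two-sided, Benjamini-Hochberg over detected probes) at 5%. Limma replaced the unequal-variance test of the methods, which was an alternative, as were other scalings, normexp with an offset of 50, detection filters, a 1% threshold, gene means, a block for the replicate number and fits without 1 array. Counts use the probe with the highest mean per gene. On simulated data with 31042 probes, 48% of changes of 1 and 86% of changes of 2 (log2) were recovered, with 4 false calls among 138. Each size of change was given to 100 probes, with independent noise and no slide effect. Recovery depends on the share of changed probes, so these rates need not hold for the real data. Same-numbered arrays share a slide position, and their deviations from diet means correlated at 0.100, 0.230, 0.182 and 0.176. Arrays of unlike number were not compared in this way, so these values cannot show whether the numbers pair arrays. The replicate number entered only the alternative fit with a block, and the main fit left it out. The p-values measure the spread between these mice.

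The 10 genes and the lists were chosen with earlier results of these data known. Beside them, the text names the 4 genes of each other pathway list with the smallest p, Ern1, Eif2ak3 and Atf6, and the 5 genes most like Hspa5. Genes were named by RefSeq accession, symbol or synonym (GRCm38.p6), and promoter stretches come from RefSeq. The array design places probes on an older assembly (mm7), for example that of Hspa5 on chromosome 2 at 34783421 to 34783480. Summaries used Python 3.11.15. One gene of the degradation list is counted but not reported here. Protein sequences, PCR, histology and other genotypes were not analysed here.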

Additional observations from a re-analysis of the deposited data

Results flagged for a closer look

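In 80 groups of 4 livers, 1 liver lay far from the other 3 in 4 groups, and chance flags about 1 in 20 groups. None of the 4 involved the 10 ER stress genes. For Dnajc10, ATH replicate 3 was 1.08 against 1.34 to 1.39 in the other ATH livers. For Ssr2, ATH replicate 2 was 3.26 against 3.10 to 3.13. For Srpr, STD replicate 4 was 2.96 against 2.56 to 2.62. For Eif2ak3, STD replicate 1 was 0.118 against -0.162 to -0.130.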

How the results depend on the processing

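The count of 0 called genes among the 10 held under each alternative but no scaling, where it was 1. The methods' test called only 0.0708% of all detected probes, so its count of 0 says little. The median log2 fold change of the 10 genes, -0.24, was 0.203 without scaling, and with 1 array left out it ran from -0.357 to -0.122. The count of 10 called among the 101 other genes was 6 with quantile normalization, 23 without scaling, 18 with normexp, 5 without the detection filter, 1 by the methods' test (Traf2), 0 at 1%, and 2 to 14 with 1 array left out. Without scaling 23.7% of all detected probes were called, close to the share of the 101 genes. With the replicate block the count was 6, where 4.45% of all detected probes were called. Shares of all probes for quantile normalization, normexp, the detection filter and the fits without 1 array are not given here. The block left 0 of the 10 ER stress genes called, with a lowest adjusted p of 0.079 for Hspa5. It ended the calls of Creb3l3, Atf3, Psat1, Gpt2 and Hspd1, called Mthfd2 (adjusted p = 0.0366 by limma) and changed no other call among the pathway genes named in the text.

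Signs turned as follows. Without scaling the log2 fold change was 0.0949 for Atf4, 0.162 for Xbp1, 0.365 for Herpud1, 0.0388 for Trib3, 0.309 for Dnajb9, 0.245 for Sdf2l1, 0.185 for Pdia4, 0.22 for Ppp1r15a, 0.0696 for Eif2ak1, 0.147 for Canx, 0.0275 for Os9, 0.202 for Nploc4, 0.0206 for Sel1l, 0.0147 for Sec16b, 0.121 for Ssr2, 0.156 for Srpr and 0.365 for Atf6. With spike-in scaling it was 0.0246 for Xbp1, 0.228 for Herpud1, 0.172 for Dnajb9, 0.107 for Sdf2l1, 0.0474 for Pdia4, 0.0829 for Ppp1r15a, 0.0093 for Canx, 0.0644 for Nploc4, 0.0189 for Srpr and 0.228 for Atf6. With quantile normalization it was 0.211 for Herpud1 and 0.0041 for Atf6. With 1 array left out the range was -0.346 to 0.0585 for Herpud1, -0.353 to 0.0838 for Dnajb9, -0.513 to 0.0946 for Sdf2l1 and -0.0766 to 0.204 for Ern1. Scaling choices add a constant or a ranking step to each array; beyond that the cause was not tested. With 4 livers a diet, the intervals given limit what difference could be seen.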

Other observations

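The cytosolic heat shock genes respond to unfolded protein outside the ER, and liver 3 was the highest of its diet at most of them. ATH liver 3 was the highest ATH liver at 11 of the 12 detected genes, against 18.7% of all detected probes. STD liver 3 was the highest STD liver at 9 of the 12, against 29.3% of all detected probes. Centered on the 8 livers, the list median was 0.65 in ATH liver 3 and 0.57 in STD liver 3, against -0.55 in ATH liver 1 and -0.38 in STD liver 1. Hsph1, a heat shock protein of the Hsp110 family, was at 5.34 in STD liver 3 and 2.92 in STD liver 1, and at 5.32 in ATH liver 3 and 2.67 in ATH liver 1. No heat shock gene had an unadjusted p under 0.05 by limma for diet. These values were chosen after they had been seen.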
